A study of Mus musculus with 4 samples.

Results

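Broad domains of trimethylated lysine 4 of histone H3 (H3K4me3), a mark of active promoters, were described in mouse peritoneal macrophages. The domains were chosen by length. The H3K4me3 peaks listed for lipopolysaccharide (LPS) and for phosphate-buffered saline (PBS) were merged where they overlapped or touched, on chromosomes 1 to 19 and X, and a merged region was selected when it held at least 1 single peak of 4000 bp or more in either list. This gave 680 broad domains among 36628 merged H3K4me3 regions, or 1.86%. The cells came from C57BL/6 mice aged 8 weeks, were drawn into the peritoneum with thioglycollate broth and were left to adhere in dishes. One group was then treated for 24 h with LPS, the bacterial cell wall component sensed by Toll-like receptor 4, and its control with PBS. Chromatin of each group was precipitated with an antibody to H3K4me3 (abcam ab8580) and, separately, with one to H3K9me3 (abcam ab8898), the mark of heterochromatin and silenced repeats. Each of the 4 groups held 1 library and peaks were called without an input library. No comparison of the treatments can be checked against replicates, no test was possible, and intervals cover counting error or the spread among domains only. Elicited macrophages are recruited cells that can carry other peritoneal cells with them, and the peaks give a population average.

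H3K4me3 is written by the SET1 and MLL complexes, which are recruited to unmethylated CpG islands and to initiating RNA polymerase II. Most active promoters carry a narrow block of the mark around the first nucleosomes of the gene. A small set carries blocks that run far into the gene body, and in many cell types such broad domains mark genes of cell identity and genes with high and steady transcription.

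The promoters of 4 domains are shown because they differ in the lengths, treatments and CpG content described below. They are RefSeq windows of build GRCm38.p6, from 250 bases before to 50 bases after the gene start, with each CpG dinucleotide in capitals. Ppp1r9b lies at the longest domain of the LPS list (chr11:94990962-94991261, plus strand, 39 CpG), Nab2 at the longest of the PBS list (chr10:127666654-127666953, minus strand, 22 CpG), Cebpa at a domain of 6.5 kb in both lists (chr7:35119043-35119342, plus strand, 29 CpG) and Nod2 at a domain called broad with LPS only (chr8:88647097-88647396, plus strand, 9 CpG).
Ppp1r9b: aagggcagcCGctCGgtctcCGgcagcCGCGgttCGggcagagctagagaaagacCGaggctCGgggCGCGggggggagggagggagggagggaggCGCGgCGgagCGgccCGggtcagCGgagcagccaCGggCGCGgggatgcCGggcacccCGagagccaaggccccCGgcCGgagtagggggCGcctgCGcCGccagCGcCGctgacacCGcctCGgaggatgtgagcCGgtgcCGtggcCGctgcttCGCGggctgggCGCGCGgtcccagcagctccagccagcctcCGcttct
Nab2: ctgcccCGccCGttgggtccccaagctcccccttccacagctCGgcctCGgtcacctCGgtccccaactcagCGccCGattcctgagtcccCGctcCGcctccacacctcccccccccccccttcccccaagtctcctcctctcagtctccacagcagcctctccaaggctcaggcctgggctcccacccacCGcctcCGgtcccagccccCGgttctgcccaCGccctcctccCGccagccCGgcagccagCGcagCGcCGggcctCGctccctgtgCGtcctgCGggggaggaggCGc
Cebpa: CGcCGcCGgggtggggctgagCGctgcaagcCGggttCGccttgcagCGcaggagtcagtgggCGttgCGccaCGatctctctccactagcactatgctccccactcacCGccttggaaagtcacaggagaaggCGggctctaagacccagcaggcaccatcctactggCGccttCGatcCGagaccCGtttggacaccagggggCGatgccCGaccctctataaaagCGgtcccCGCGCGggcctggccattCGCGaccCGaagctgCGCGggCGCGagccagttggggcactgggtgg
Nod2: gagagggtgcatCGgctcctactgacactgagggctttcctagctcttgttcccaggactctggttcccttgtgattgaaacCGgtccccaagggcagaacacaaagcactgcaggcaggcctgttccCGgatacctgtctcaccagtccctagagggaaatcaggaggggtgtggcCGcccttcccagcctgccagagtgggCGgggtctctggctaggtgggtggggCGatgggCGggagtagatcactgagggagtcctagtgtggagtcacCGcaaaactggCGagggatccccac

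The filtered H3K4me3 libraries held 26748289 tags with LPS and 29681491 with PBS. The H3K9me3 libraries held 28586946 filtered tags with LPS and 27727997 with PBS. As a check of the labelled cell type, 36 of 38 listed macrophage transcription factors and 32 of 51 pattern recognition and macrophage surface receptors had an H3K4me3 region at the gene start, with summed tags of 16704 and 7480 in LPS cells and of 24466 and 11378 in PBS cells. Stat3, Nr1h2, the receptor gene Csf1r and the integrin gene Itgam were among those with no listed region at the gene start. Of markers of other cells, 3 of 17 T cell, 4 of 13 B cell, 3 of 13 neutrophil, 1 of 13 eosinophil and mast cell and 7 of 16 mesothelial and fibroblast genes had such a region, with summed tags between 113 and 671 in LPS cells and between 60 and 879 in PBS cells. The sums add up different numbers of genes and are no measure per gene. The defining genes Cd3e, Ms4a1, Ly6g, Siglecf and Msln had no region at the start, and no marker of these other cells had its start in a broad domain. A domain without a gene start did lie inside Pdgfra, a listed mesothelial and fibroblast marker. It held 451 tags in LPS cells and 591 in PBS cells, and is named after its values were seen. Likewise, a domain without a gene start lay inside Csf1r, a listed macrophage receptor. That domain held 515 tags in LPS cells and 621 in PBS cells, and is also named after its values were seen.

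The domains were not equally long in the 2 libraries. The LPS list held 390 peaks of 4 kb or more among 28478, or 1.37%, and these carried 6.96% of all tags in its peaks. The PBS list held 571 among 31368, or 1.82%, which carried 8.86%. Of the 680 domains, 281 reached 4 kb in both lists, 109 in the LPS list only and 290 in the PBS list only. Because these values chose the domains, they describe them and are no finding about LPS.

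The longest single peak of a domain had a median of 4.81 kb (quartiles 4.32 and 5.67 kb). In the LPS list the longest was the 8.48 kb peak at Ppp1r9b, which encodes spinophilin, a scaffold of protein phosphatase 1. Among domains with a gene start it was followed by those at Tcirg1, the a3 subunit of the lysosomal and osteoclast proton pump (8.13 kb), Niban2 (7.86 kb), Nfkb2, the precursor of the NF-kB subunit p52 (7.56 kb), and Il4ra, the receptor chain for interleukins 4 and 13 (7.47 kb). In the PBS list the longest was the 8.53 kb peak at Nab2, a corepressor of EGR factors, followed among domains with a gene start by Niban2 (8.45 kb), the shared promoter region of Gpsm3 and Pbx2 (8.32 kb), the semaphorin receptor gene Plxnd1 (8.24 kb), the small GTPase gene Rhog (8.07 kb) and Rab11fip5, an effector of Rab11 in membrane recycling (8.01 kb). Tcirg1 and Niban2 were thus among the longest in both lists. Domains without a gene start were as long, with one on chromosome 13 (119595412 to 119603680) at 8.23 kb with LPS and 8.26 kb with PBS, and 2 on chromosome 1 at 7.58 and 7.48 kb with LPS.

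The threshold cuts a continuous range. Just inside it were the domains at Cd93 (4.001 kb with PBS), Leng9 (4.004 kb with PBS) and Paqr4 (4.004 kb with LPS). Just outside were the regions at Zswim6 (3.998 kb with LPS), Vcan (3.997 kb with PBS) and Mxi1 (3.994 kb with PBS). Of the 109 domains called broad with LPS only, 57 had a PBS peak of at least 3000 bp, and of the 290 called broad with PBS only, 137 had such an LPS peak.

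**Figure D1:**
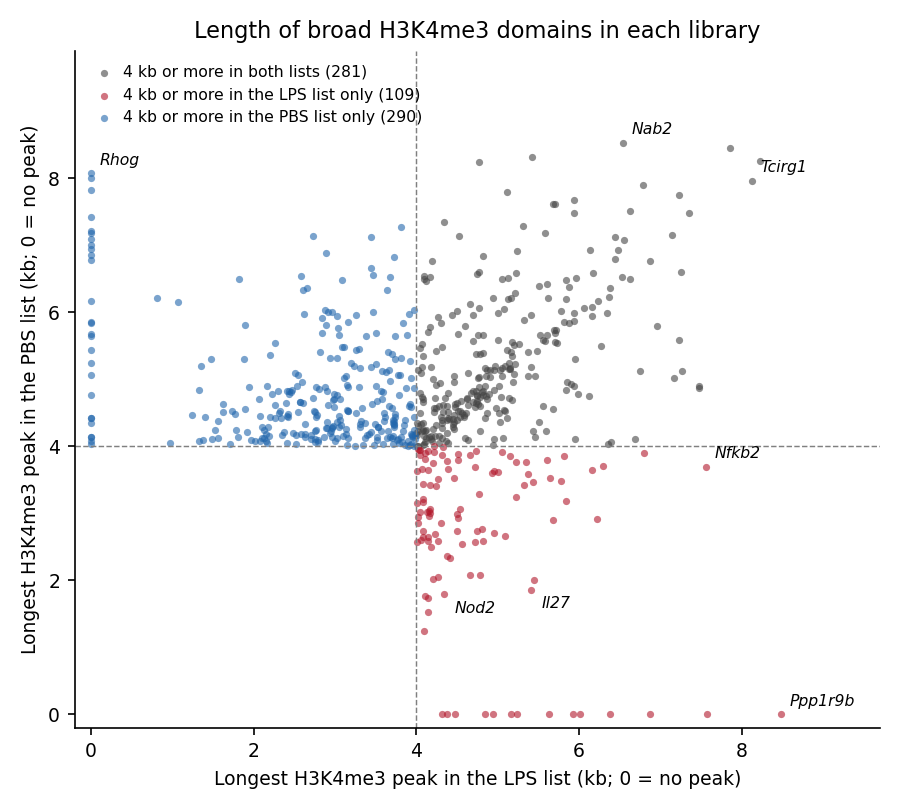
Each point is 1 of the 680 broad domains, with the length in kb of its longest LPS peak on the horizontal axis and of its longest PBS peak on the vertical axis; dashed lines mark the 4 kb threshold and 0 means that the list has no peak there. Many of the points coloured for 1 list lie close under the threshold of the other list, while 14 lie at 0 for PBS and 27 at 0 for LPS.

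Most domains were 1 unbroken peak in each list, which held for 570 of 680. The LPS list split 58 domains into 2 or 3 peaks and the PBS list split 13 into 2. Splitting shortens the single longest peak, so a domain can differ in length between the lists with nearly the same tags. The domain at Myd88 and Acaa1a, over the start of the adaptor of Toll-like receptors, had 623 tags with LPS and 706 with PBS, with a longest peak of 2.90 kb with LPS and 4.83 kb with PBS.

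Tags grew with the length of a peak but the caller's score did not. Peaks of 2 to 3 kb held a median of 302 tags with LPS and 376 with PBS, and peaks of 6 kb or more held 882 with LPS and 1043 with PBS. Over the same classes the median score, which is the deposited minus 10 times log10 of the caller's p-value, was 480 and then 136 with LPS, and 689 and then 178 with PBS. The caller's fold enrichment was 7.56 and then 4.46 with LPS, and 8.54 and then 4.84 with PBS. Density stayed level, at 125 and then 134 tags per kb with LPS and at 157 and then 155 with PBS. Among peaks of 2 kb or more, the longest class therefore had the median score nearest to the listing threshold of 50, while peaks under 1 kb had lower medians still, of 72.9 with LPS and 76.0 with PBS. At Ppp1r9b 1359 tags gave a score of 53.7 with LPS, at Tcirg1 1214 and 1475 tags gave 54.5 with LPS and 55.9 with PBS, and at Rab11fip5 1130 tags gave 51.5 with PBS. Scores under 100 were given to 13 of 48 LPS peaks (27.1%) and 24 of 96 PBS peaks (25%) of 6 kb or more, against 13 of 234 (5.56%) and 20 of 339 (5.90%) of 4 to 5 kb.

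**Figure D2:**
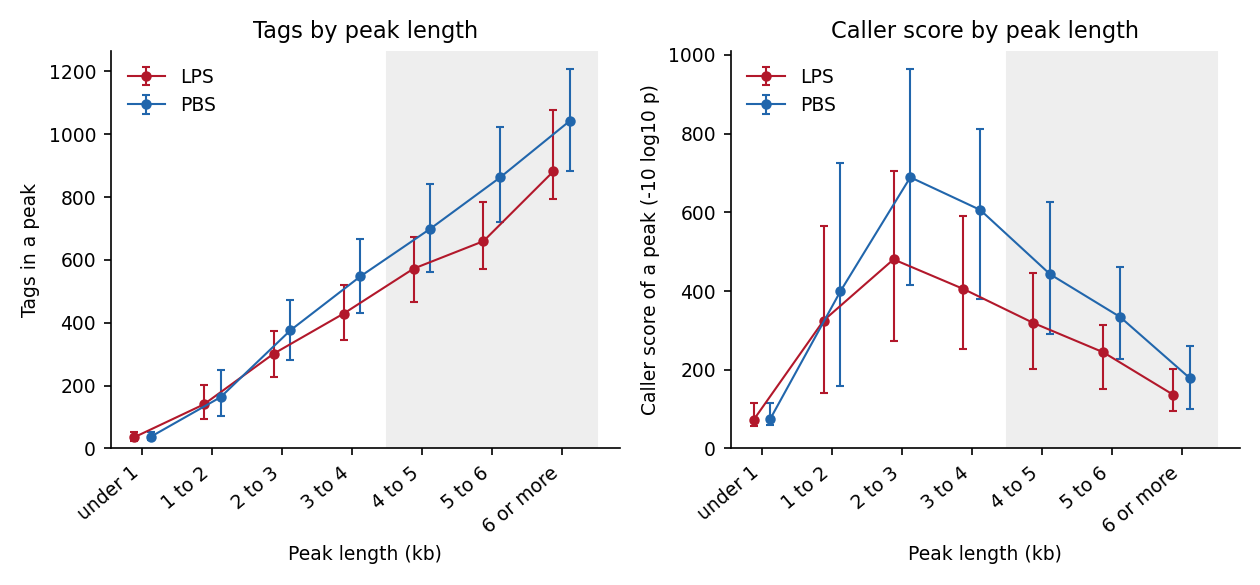
Median tags in a peak (left) and median caller score of a peak (right, minus 10 times log10 of p) by peak length in kb, for every peak of the LPS list and of the PBS list; whiskers are quartiles over peaks and the shaded classes are 4 kb or more. Median tags rise through every class, from 35 with LPS and 37 with PBS in the shortest, while the score peaks at 2 to 3 kb in both lists.

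Only 1 list named 14 domains with LPS and 27 with PBS. Peaks in both lists were found at 639 of the 680 domains and at 21564 of the 35948 other regions. Being named by 1 list only was thus less frequent among domains than among other regions. In the 14 named by the LPS list alone the domain held 440 to 1388 tags (median 626) with a score of 53.7 to 407 (median 137), and 6 of the 14 scored under 100. In the 27 named by the PBS list alone it held 319 to 1439 tags (median 873) with a score of 51.5 to 517 (median 98.3), and 14 of the 27 scored under 100. Many therefore sat near the threshold in the list that names them. Being absent from a list means a score under 50 in that library and not that the mark was missing, and the part that the fall of the score with length has in these absences was not tested. A peak of the other list lay within 5 kb of 7 of the 14 and of 9 of the 27.

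The LPS list alone named the domains at Ppp1r9b (1359 tags), at Tnfaip2, a target of tumour necrosis factor (1205 tags, score 96.6), at Fam20c, the kinase of secreted proteins (985 tags, score 279), and at Trim8, a ubiquitin ligase of NF-kB signalling (806 tags, score 407). The PBS list alone named those at Git1 and Ankrd13b (1439 tags, score 139), at Lrp1, an endocytic receptor that takes up lipoproteins and dying cells (1201 tags, score 349), at Zc3h12a, which encodes the cytokine mRNA-degrading enzyme Regnase-1 (1201 tags, score 124), at Cd151 and Cracr2b (1167 tags, score 73.7) and at Rab11fip5. Spi1, which encodes the macrophage master regulator PU.1 and is named here after its values were seen, was in the LPS list alone with 503 tags over 4.94 kb at a score of 88.1, and the nearest PBS peak, with 141 tags, began 2.13 kb away. Tags of the unlisted library over these domains were not analysed here, so none has an LPS to PBS ratio.

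For the 639 domains with a peak in both lists, tags were compared per filtered tag of each library. The domains held 83 to 3982 tags with LPS (median 549) and 115 to 4294 with PBS (median 752), and the log2 ratio (LPS over PBS) had a median of -0.33 (95% interval -0.35 to -0.30). The 17244 other shared regions with 100 tags or more gave -0.34 (-0.34 to -0.33), so the domains sat where the other regions of these libraries did, and a domain near that value differed no more than a typical region. The listed peaks held 14.0% of the filtered tags with LPS and 17.8% with PBS. Scaled by the tags in peaks instead of all filtered tags, the median of the domains was 0.01. With 1 library per group, a difference in enrichment between the libraries and a difference in the mark cannot be told apart. In these pooled cells, fewer cells with a mark and less of the mark per cell cannot be told apart. Because peaks were called separately, tags move with the length that was called. Over the 639 domains the log2 ratio of covered length and that of tags correlated at Pearson r = 0.918 (Spearman rho = 0.888), where both values of a domain come from the same peaks. Per covered kb the median log2 ratio was -0.16 (-0.18 to -0.14) at the domains and -0.19 (-0.19 to -0.18) at the others.

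By tags, 5 of 639 domains were at least 2-fold higher with LPS (0.782%) and 31 were at least 2-fold higher with PBS (4.85%). Over all 17883 shared regions with 100 tags or more these shares were 0.559% and 3.19%. Scaled by tags in peaks the counts were 12 higher with LPS and 10 higher with PBS, so the side with more of them turned with the scaling. The shares over all regions at that scaling are not given here, so these counts describe the domains alone. Per covered kb no domain reached 2-fold in either direction, and over all regions 1 was 2-fold higher with LPS (0.00559%) and 12 with PBS (0.0671%). The classes chosen by length differ by construction, with median log2 ratios of 0.11 for the 95 shared domains broad with LPS only, -0.52 for the 263 broad with PBS only and -0.26 for the 281 broad in both, and nothing is read from them.

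The highest ratio was at Il27, the gene of the p28 subunit of the cytokine interleukin 27, on chromosome 7 (126591557 to 126596973). Its domain held 531 tags over 5.42 kb in LPS cells and 145 tags over 1.86 kb in PBS cells, a log2 ratio of 2.02 (95% interval 1.76 to 2.30). The density was 98.0 tags per kb with LPS and 77.8 with PBS, a log2 ratio per covered kb of 0.48. Both the called length and the density at Il27 were higher with LPS.

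Nod2, the cytosolic sensor of bacterial muramyl dipeptide whose CpG-poor promoter is printed above, held 492 tags over 4.35 kb in LPS cells and 208 over 1.80 kb in PBS cells, a log2 ratio of 1.39 (1.16 to 1.63). Its density was 113 tags per kb with LPS and 116 with PBS, or 0.12 per covered kb after scaling to depth, so most of the difference lay in the called length. Length also carried the difference at Parp10, a mono-ADP-ribosyltransferase, with 455 tags over 4.10 kb in LPS cells and 202 over 1.25 kb in PBS cells (log2 ratio 1.32, and -0.39 per covered kb). Ly6e, an interferon-induced surface protein gene, held 600 tags over 5.45 kb in LPS cells and 332 over 2.01 kb in PBS cells (interval of the log2 ratio 0.81 to 1.20, and -0.43 per covered kb). Adora2a, a receptor through which adenosine dampens macrophage activation, held 657 tags in LPS cells and 402 in PBS cells (0.86, and 0.24 per covered kb). The next with a gene start were Ccdc88b (0.82), Cilp2 (0.70) and Tlx3, a homeobox gene (0.67, and 1.97 when peaks had to score 100 or more), with log2 ratios per covered kb between -0.10 and -0.02. Among domains without a gene start, one inside Arl15 held 252 tags in LPS cells and 115 in PBS cells (1.28, and 0.07 per covered kb). One inside Exoc3l4 held 610 and 382 (0.83) and one across Hrc and Ppfia3 460 and 308 (0.73), and all 3 are named after their values were seen. The Arl15 domain also held more H3K9me3 than H3K4me3 tags, 353 with LPS and 238 with PBS. The limit on the placing of tags at such domains, given below, applies to it.

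Among the lowest ratios at gene starts was that at Tpst2, a tyrosylprotein sulfotransferase, which held 158 tags over 0.807 kb in LPS cells and 771 over 6.21 kb in PBS cells, a log2 ratio of -2.14 (-2.39 to -1.89). Its density was 196 tags per kb with LPS and 124 with PBS, a log2 ratio per covered kb of 0.81, so its LPS peak was much shorter and denser. Low ratios were also found at Smcr8, a gene of autophagy (-1.91), Ehbp1l1 with Fam89b (-1.89), Myo1f, a leukocyte class I myosin (-1.79), Il21r, the interleukin 21 receptor (-1.75), Sphk2, a sphingosine kinase (-1.62), and Wdr91, a regulator of endosomes (207 tags in LPS cells and 651 in PBS cells). Their log2 ratios per covered kb lay between -0.13 and 0.11. At these 6 domains the LPS list had 1 short peak of 1.24 to 1.90 kb, against a PBS peak of 4.09 to 6.49 kb. When peaks up to 1000 bp apart were merged, the log2 ratio was -1.09 at Smcr8, -1.26 at Ehbp1l1 with Fam89b and -2.16 at Sphk2. Inside Fam20c, away from its start, a domain with no gene start held 83 tags in LPS cells and 352 in PBS cells (-1.93).

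A protein-coding gene start lay in 581 of the 680 domains, counting either gene end where the reference tables give no strand. An end without strand was the only evidence for 119 domains, among them those at Il27, Parp10, Ly6e and Adora2a. By this rule 501 domains held 1 gene, 73 held 2 and 7 held 3. Among the other regions 12070 of 35948, or 33.6%, held at least 1. The domains carried 659 genes, or 5.05% of the 13057 protein-coding genes with H3K4me3 at the start, and this is the share against which the lists below stand. The lists are descriptions, since the domains were chosen by length and the lists were written with earlier results of these data known.

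Transcription factors of macrophages were at broad domains in 17 of 36 cases, or 47.2% (95% interval 30.4 to 64.5), with a median log2 ratio of -0.52 over the 16 with a peak in both lists. Cebpa, which drives myeloid differentiation, held 937 tags over 6.53 kb in LPS cells and 1391 over 6.52 kb in PBS cells, a log2 ratio of -0.42 with the same value per covered kb. It was thus equally long in both. By tags its ratio lay slightly under the median of all regions, which was -0.34. Per covered kb it lay further under, since all regions had a median of -0.19 and a lower quartile of -0.33. Rara, a retinoic acid receptor, held 756 tags in LPS cells and 1035 in PBS cells (-0.30), Klf13 held 727 and 1002 (-0.31) and Bhlhe41, a basic helix-loop-helix repressor, held 693 and 1027 (-0.42). Irf8, the interferon regulatory factor of the monocyte lineage, named here after its values were seen, held 637 tags over 5.70 kb in LPS cells and 1014 over 7.62 kb in PBS cells (-0.52, and -0.10 per covered kb).

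Of AP-1 and immediate early factors 7 of 20 were at broad domains, or 35% (15.4 to 59.2), with a median log2 ratio of -0.27 over 6. Mafg, a small Maf partner of stress-response factors, held 880 tags in LPS cells and 1164 in PBS cells (log2 ratio -0.25), Klf10 held 715 and 969 (-0.29), Nr4a3, an orphan nuclear receptor, 680 and 861 (-0.19) and the AP-1 subunit gene Fosl2 583 and 872 (-0.43). Of MAP kinase phosphatases and SOCS suppressors, which shut signalling down, 6 of 18 were at broad domains, or 33.3% (13.3 to 59.0), with a median log2 ratio of -0.43. Dusp7 held 1001 tags over 6.40 kb in LPS cells and 1023 over 4.06 kb in PBS cells (0.12, and -0.54 per covered kb). Dusp4 held 682 and 1147 tags (-0.60), Socs3, the brake on interleukin 6 signalling, 602 and 880 (-0.40), and Dusp5 451 and 719 (-0.52). Of these 4, only Dusp7 lay above the median of all regions.

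Of NF-kB and Toll-like receptor signalling genes 8 of 39 were at broad domains, or 20.5% (9.30 to 36.5), with a median log2 ratio of -0.36 over 6. Nfkb2 held 865 tags over 7.56 kb in LPS cells and 645 over 3.69 kb in PBS cells, a log2 ratio of 0.57 (0.42 to 0.72), with a ratio per covered kb of -0.46. Its domain was longer and thinner with LPS. Zfp36, the mRNA-decay factor tristetraprolin, held 505 tags in LPS cells and 921 in PBS cells (-0.72, and 0.02 per covered kb), while Tnfaip2 and Zc3h12a were each named by 1 list only. Of inflammatory mediators 4 of 30 were at broad domains, or 13.3% (3.76 to 30.7). Beside Il27 these were Vegfa (944 tags in LPS cells and 1241 in PBS cells, -0.24), Tgfb1 (681 and 985, -0.38) and Osm, encoding oncostatin M (452 and 476, 0.08). Of interferon-stimulated and interferon regulatory genes 3 of 40 were, or 7.5% (1.57 to 20.4). Irf1, the early interferon regulatory factor, held 737 tags in LPS cells and 686 in PBS cells, a log2 ratio of 0.25 (0.10 to 0.41) that was 0.14 per covered kb. Trim25, the ubiquitin ligase of the RIG-I pathway, held 664 and 822 (-0.16) and Irf5 645 and 1175 (-0.72).

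Effector functions of the macrophage were also represented. Of actin cytoskeleton and adhesion genes 12 of 39 were at broad domains, or 30.8% (17.0 to 47.6), with a median log2 ratio of -0.37 over 11. Ahnak held 782 tags in LPS cells and 1073 in PBS cells (-0.31), Actg1, encoding gamma actin, 763 and 1094 (-0.37), Pfn1, the actin-monomer binder profilin, 737 and 980 (-0.26) and Zyx, the focal adhesion protein zyxin, 887 and 904 (0.12, and -0.68 per covered kb). Of lysosome and phagocytosis genes 8 of 25 were, or 32.0% (14.9 to 53.5) at a median log2 ratio of -0.36, with the cathepsin genes Ctsz (803 tags in LPS cells and 818 in PBS cells, 0.12) and Ctsa (582 and 879, -0.44), the tetraspanin gene Cd63 (735 and 828, -0.02) and the proton pump subunit gene Atp6v0c (637 and 854, -0.27). Of lipid and cholesterol genes 6 of 29 were, or 20.7% (7.99 to 39.7) at a median log2 ratio of -0.58 over 5, with Cpt1a, the carnitine carrier step of fat oxidation (464 tags in LPS cells and 708 in PBS cells, -0.46), Apoe (376 and 623, -0.58) and Lrp1. Of pattern recognition and surface receptors 5 of 32 were, or 15.6% (5.28 to 32.8). Tnfrsf1a, a receptor of tumour necrosis factor, was one of the longest in both libraries, with 929 tags over 7.35 kb in LPS cells and 1184 over 7.47 kb in PBS cells (-0.20). Il4ra held 853 tags over 7.47 kb in LPS cells and 868 over 4.90 kb in PBS cells (0.12), Csf2ra 547 and 630 tags (-0.05) and Il10ra 381 and 511 (-0.27). The Csf2ra domain also held 227 H3K9me3 tags with LPS and 233 with PBS, so the limit on domains with both marks, given below, applies to it.

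Genes of H3K4 methyltransferases were among them, since 3 of 18 genes of the H3K4 methylation machinery (16.7%, 3.58 to 41.4) lay at domains of over 4 kb in both lists. Kmt2d held 870 tags in LPS cells and 1114 in PBS cells (-0.21), Setd1b 809 and 1031 (-0.20) and Kmt2b 544 and 764 (-0.34). Of antigen presentation genes 2 of 20 were at domains, or 10% (1.23 to 31.7), Tapbp, the peptide-loading factor tapasin (753 tags in LPS cells and 747 in PBS cells, 0.16), and B2m (329 and 481, -0.40). The shares of the remaining lists were near or under 5.05%. They were 2 of 33 metabolic genes (6.06%; Eno1 and the lactate carrier gene Slc16a3), 1 of 16 genes of SUN proteins, the LINC complex and the nuclear lamina, a group that includes the protein family of the series title (6.25%; Lmna, with 2 domains of 174 and 539 tags in LPS cells and of 400 and 701 in PBS cells), 1 of 22 ribosomal protein genes (4.55%; Rpl10a) and 1 of 49 Hox and other developmental genes (2.04%; Gata2). None of 17 neuronal genes with H3K4me3 was at a domain, with an upper exact limit of 19.5%.

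**Figure D3:**
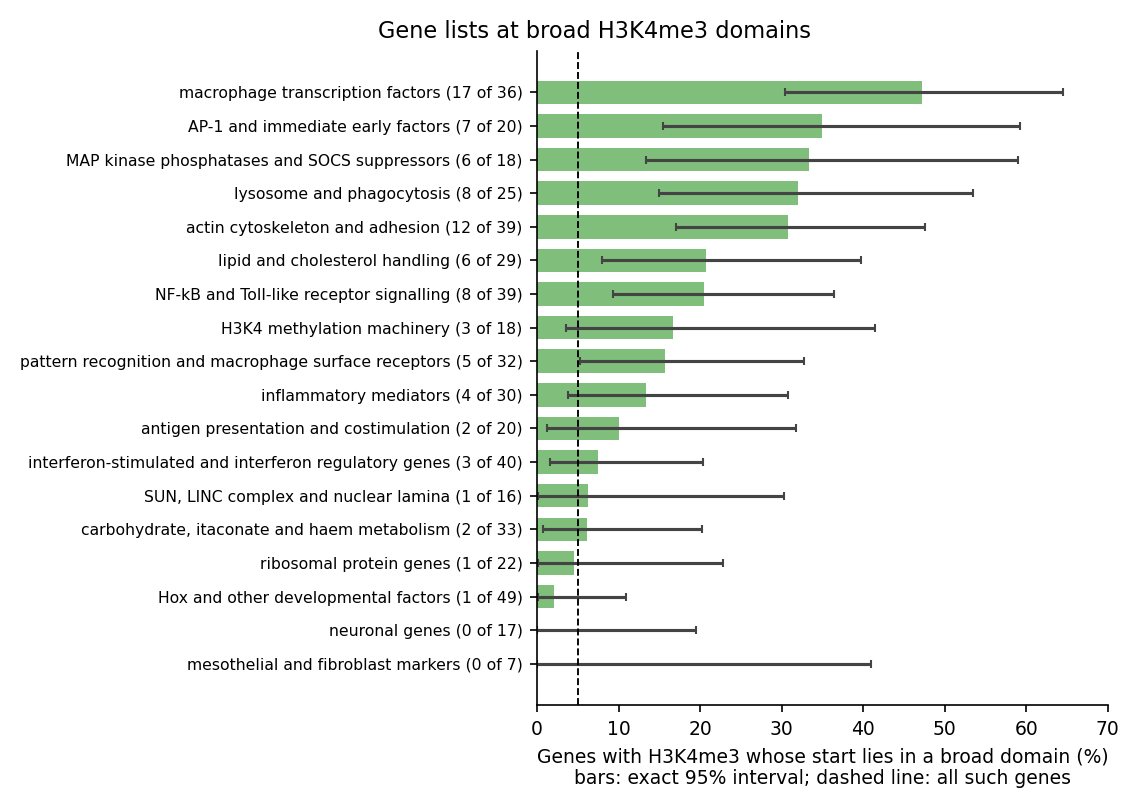
Bars give, for each gene list with at least 5 genes that have H3K4me3 at the start, the percentage whose start lies in a broad domain, with exact 95% intervals over genes. The dashed line is the 5.05% of all such genes; macrophage transcription factors stand at 47.2%, and ribosomal protein, developmental and neuronal genes at or under the line.

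The domains extended mainly into the gene. Among 316 domains with exactly 1 stranded gene start, the longest peak ran a median of 3717 bp downstream of the start (95% interval 3576 to 3896) and 1070 bp upstream (992 to 1196). It ran further downstream than upstream in 277 of 316, or 87.7% (83.5 to 91.1). The 8129 other regions of this kind were as lopsided, at 88.2% (87.5 to 88.9), with 1124 bp downstream and 449 bp upstream. Additional length was not shared evenly between the sides. Peaks of 2 to 3 kb, 4 to 5 kb and 6 kb or more had medians of 1646, 3353 and 5608 bp downstream, but of 726, 1007 and 1117 bp upstream. The summit stayed near the start, at a median of 269 bp downstream in the domains (215 to 312) and of 192 bp in the other regions (188 to 196).

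The domains at Rab11fip5 (7133 bp downstream and 875 bp upstream), Mafk, a small Maf factor gene (7098 and 105 bp), and Rhog (7072 and 996 bp) reached furthest into their genes. A few were turned the other way. Those at Rara (256 bp downstream and 5275 bp upstream), Bcl11a, a zinc finger repressor gene (1651 and 5175 bp), and Mllt6 (1978 and 5104 bp) reached furthest upstream of the listed start. Mafk, Bcl11a and Mllt6 were chosen after their values were seen, and an unlisted alternative start cannot be told apart from upstream spread here.

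**Figure D4:**
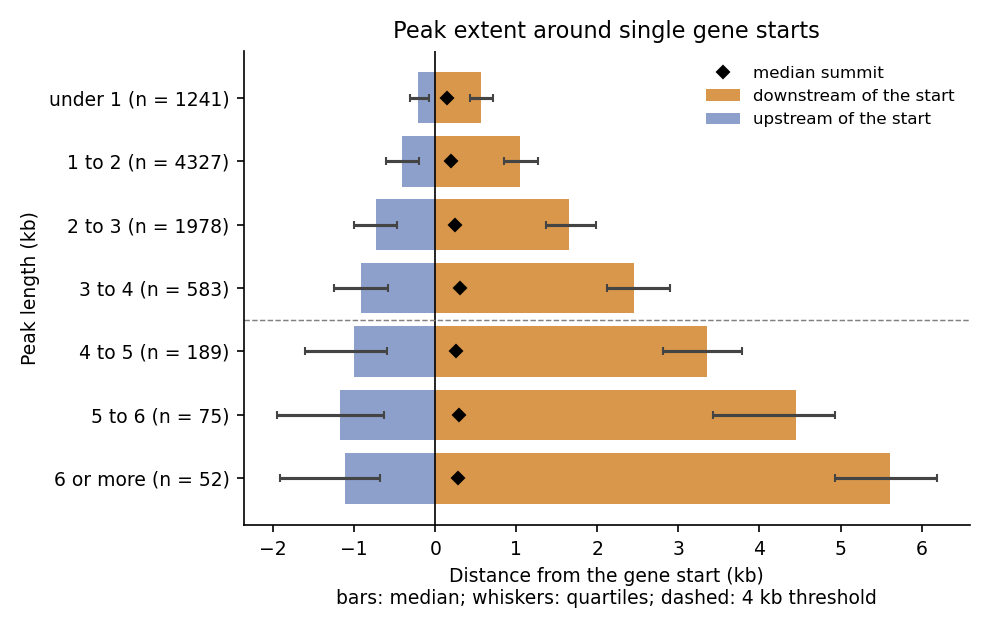
Median distance in kb that the longest peak extends downstream (right) and upstream (left) of the gene start, by peak length, for regions with exactly 1 stranded gene start; whiskers are quartiles over regions, diamonds are median summits and the dashed line is the 4 kb threshold. Downstream reach grows to a median of 5608 bp in peaks of 6 kb or more, while upstream reach levels off at about 1.0 to 1.2 kb and the summit stays within about 0.3 kb of the start.

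Promoter sequence differed little between domains and other marked regions. The 671 RefSeq promoter windows inside domains, of 515 genes, had a median GC content of 65.0% (95% interval 64.0 to 65.7) and 7.67 CpG per 100 bases (7.33 to 8.00). The 11909 windows inside other H3K4me3 regions had 62.3% (62.0 to 62.3) and 7.33 (7 to 7.33). All 21044 windows of protein-coding genes, marked or not, had 56.7% and 4.33. CpG-poor windows, with under 2 CpG per 100 bases, made up 6.56% at domains, 6.19% at other regions and 31.7% of all. The promoters of Ppp1r9b with 13.0 CpG per 100 bases and of Nod2 with 3, printed above, mark how widely single domains vary around their median.

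Short motifs were counted on both strands of the 300 bases, with overlaps between motifs allowed. The PU.1 core GAGGAA was in 28.0% of windows at domains (24.6 to 31.6), in 25.7% at other regions (24.9 to 26.4) and in 27.2% of all. The AP-1 site TGANTCA was in 3.43% at domains (2.19 to 5.10), 4.58% at other regions and 7.04% of all, and TATAAA was in 4.92% (3.41 to 6.84), 5.92% and 12.7%. A kappa B site, read as GGGA, any base and TTTCC, was in 0.894% (0.329 to 1.94), 0.411% and 0.428%, and an interferon response element, read as GAAA, any 2 bases and GAAA, in 2.24% (1.26 to 3.66), 2.90% and 3.38%. Every interval at domains except that of AP-1 and TATAAA includes the share of all promoters. These intervals, and those of GC and CpG, treat windows as independent, although the 671 windows belong to 515 genes and some overlap. The kappa B matches at domains include overlapping windows of Myadm and of Nfkb2, so nothing is read from their higher share. The printed Cebpa window holds a TATAAA match, and none of the 5 motifs matches in the printed windows of Ppp1r9b, Nab2 and Nod2.

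In 99 domains no protein-coding gene start was found. Of these, 75 lay inside or across a protein-coding gene, 11 outside any such gene held an end of a noncoding gene, 12 overlapped no annotated gene, and 1 lay on the pseudogene Pisd-ps2. Several lay inside macrophage genes and are named after their values were seen. The domain within Mpeg1, the pore-forming perforin-2 of phagocytes, held 268 tags in LPS cells and 512 in PBS cells, that within Stab1, a scavenger receptor, 331 and 680, that within Tfeb, the lysosomal master regulator, 317 and 589, and that within Ptpn6, which encodes the phosphatase SHP-1, 482 and 604.

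Noncoding genes included 21 miRNA hairpins that lay wholly within domains. One domain of 812 tags in LPS cells and 867 in PBS cells on chromosome 17 (17825751 to 17830616) covered Mirlet7e, the hairpin of let-7e. That domain also overlapped the miRNA gene Mir99b, which is not among the 21. let-7 miRNAs repress growth and cytokine messages, and the mature sequences are given, as listed by RefSeq (GRCm38.p6, chr17:17830366-17830387 and chr17:17830411-17830432, plus strand), with the seed (bases 2 to 8), through which a miRNA pairs with its targets, in capitals.
mmu-let-7e-5p: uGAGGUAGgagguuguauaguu
mmu-let-7e-3p: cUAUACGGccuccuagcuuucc

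On chromosome 1, 3 neighbouring domains between 171063342 and 171084755 covered 3 blocks of 5 tRNA genes each, the first of them overlapping the Fc receptor gene Fcgr3. They held 1253, 1388 and 1509 tags in LPS cells. In PBS cells the outer pair held 937 and 1174 tags and the middle block was not listed. H3K9me3 peaks held 703, 0 and 899 tags there with LPS, and 531, 216 and 687 with PBS. The 3 blocks hold tRNA genes of the same types, and the middle LPS peak scored 65.7, near the listing threshold. The limit on the placing of tags at domains with both marks, given below, applies to all 3, and nothing is read from the middle block.

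H3K9me3, which the choice of domains did not use, was called on 228 of 680 domains in LPS cells, or 33.5% (95% interval 30.0 to 37.2), and on 206 in PBS cells, or 30.3% (26.9 to 33.9). Over all merged H3K4me3 regions the shares were 15.9% and 13%, and over the regions that were no domains 15.6% (15.2 to 16.0) and 12.7% (12.3 to 13.0). Long regions meet more peaks. Other regions with at least 2000 bp covered had H3K9me3 in 29.4% (28.2 to 30.7) with LPS and 23.6% (22.5 to 24.7) with PBS. Per 100 kb of region the domains held 7.73 H3K9me3 peaks with LPS and 6.77 with PBS, against 13.9 and 11.4 in other regions, so the share of domains with a peak was higher while the number of peaks for their length was lower. H3K9me3 peaks covered 4.84% of the length of domains with LPS and 3.98% with PBS, against 5.25% and 4.04% of the other regions.

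Most of these peaks were small. Where present, H3K9me3 tags on a domain had a median of 32.0 with LPS and 25.5 with PBS. At the 316 domains with 1 stranded gene start, 121 peaks with LPS had their summit at a median of 424 bp downstream of the start, 46.3% of them within 500 bp of it on either side. With PBS 115 peaks lay at a median of 333 bp, with 56.5% within 500 bp. Only H3K9me3 peaks on the domains were counted, and the domains extend mainly downstream. A median downstream of the start follows from that layout, and nothing is read from the side.

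A small group carried both marks at high levels. In 19 domains H3K9me3 held at least 100 tags in both treatments, and 14 of these had no protein-coding gene start. In 8 of the 19, H3K9me3 tags equalled or exceeded H3K4me3 tags in both treatments. Taking each treatment alone, 27 of 680 domains held at least 100 H3K9me3 tags with LPS and 21 with PBS. Of the 35948 other regions, 249 and 221 did. H3K9me3 tags exceeded H3K4me3 tags in 12 domains with LPS and 9 with PBS, against 979 and 722 other regions. That excess was thus no more frequent among domains. The 19 included the 3 domains with the most H3K4me3 tags of all. The first, on chromosome 14 (19415347 to 19419815, no annotated gene), held 3982 H3K4me3 and 4959 H3K9me3 tags with LPS and 4294 and 5269 with PBS. The second, on chromosome 17 (39842818 to 39849064), covers the ribosomal RNA repeat gene Rn18s-rs5 and held 3275 and 4328 tags with LPS and 3123 and 4111 with PBS. The third, on chromosome 13 (119595412 to 119603680), lies across Tmem267 and held 2415 and 3043 tags with LPS and 2535 and 3070 with PBS.

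The domain at Duxf3, of a repeated family of homeobox genes, held 641 and 923 tags with LPS and 753 and 926 with PBS, and its near-identical copies make the placing of its tags uncertain. A domain on chromosome 11 (3100111 to 3105470, no annotated gene) held 353 and 786 tags with LPS and 578 and 986 with PBS. The log2 ratios of LPS to PBS H3K4me3 tags were 0.04, 0.22, 0.08, -0.08 and -0.56 at these 5 domains. Repeat content was not analysed here, and at such domains the presence of both marks and an uncertain placing of tags cannot be told apart. Without the 29 domains holding 100 or more H3K9me3 tags in either library, 651 domains remained, with a median log2 ratio of -0.34.

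**Figure D5:**
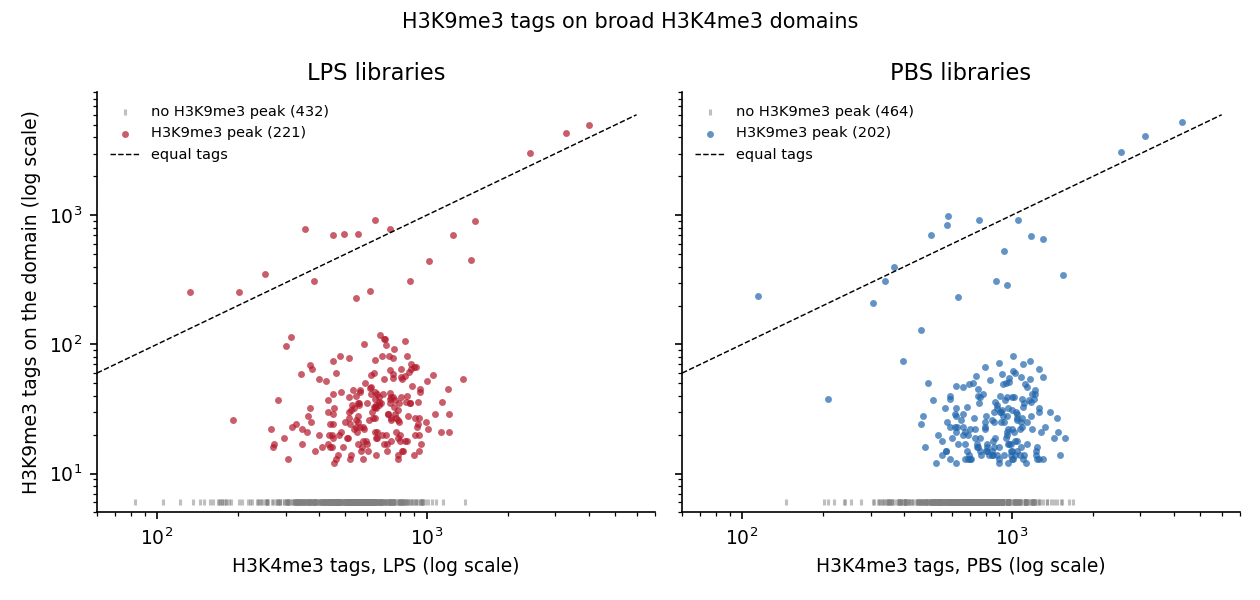
H3K9me3 tags (vertical, log scale) against H3K4me3 tags (horizontal, log scale) on each broad domain listed for the LPS (left) and PBS (right) H3K4me3 library; ticks along the bottom are domains with no H3K9me3 peak and the dashed line marks equal tags. Most points lie under 100 H3K9me3 tags, and the 3 domains with the most H3K4me3 tags lie just above the line in both treatments.

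Domains were unevenly spread over chromosomes. They made up 3.11% of the merged regions of chromosome 7 (76 of 2444, 95% interval 2.46 to 3.88), 2.93% of chromosome 11 (80 of 2731, 2.33 to 3.63) and 2.87% of chromosome 15 (43 of 1496, 2.09 to 3.85). They made up 0.553% on chromosome 16 (7 of 1265, 0.223 to 1.14) and 0.287% on chromosome X (2 of 698, 0.0347 to 1.03). With another domain within 50 kb were 140 of the 680, or 20.6%, in 66 runs. The run with the most domains joined 4 in 45.7 kb of chromosome 7, at Slc25a22, Pnpla2, Cd151 with Cracr2b and Polr2l with Tspan4. The domain at Pnpla2, the lipase that opens fat droplets (552 tags), was named by the LPS list only, and its neighbour at Cd151 (1167 tags) by the PBS list only. The other 6 runs of 3 or more each held 3 domains and included those at Sbno2 and Midn on chromosome 10 (84.1 kb) and at Sipa1, Map3k11 and Ehbp1l1 on chromosome 19 (71.0 kb). These genes, other than Cd151 and Ehbp1l1, were chosen after their values were seen.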

How the data were processed

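H3K4me3 and H3K9me3 were measured by ChIP-seq in 4 libraries, 1 per mark and treatment. Per the submitters' processing notes, CASAVA 1.4, Bowtie 0.12.8, MACS 1.4.2, DiffBind and build mm10 were used. Per the file headers, the authors called peaks in each library alone with MACS, without a control library, at a p-value cutoff of 1e-05, a band width of 300 bp, a local background window of 10000 bp and at most 1 tag kept per position. The deposited tag count of a peak is not normalized. The deposited score is minus 10 times log10 of the caller's p-value, the deposited ratio is the fold enrichment over local background, and the deposited length and summit are in bp. No file gives tags outside peaks.

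Here peaks overlapping by 1 bp or touching were merged with Python 3.11.15, numpy 2.4.6, pandas 2.3.3 and SciPy 1.17.1. The log2 ratio of LPS to PBS divides each domain's tags by the filtered tags of its library. Shares have exact (Clopper-Pearson) 95% intervals, ratios exact binomial intervals of counting error and medians order-statistic intervals. Other regions entered ratio counts with 100 tags or more over both lists. With 1 library per group no test was made. Gene starts, promoters and miRNAs came from RefSeq tables of GRCm38.p6, the assembly named mm10, matched by coordinates. The merging and the ratios were tested on simulated data. The domains, the lists and the rules were chosen with earlier results of these data known. Genes named were those at the 8 longest domains per list, the 8 with most tags, the 8 highest and lowest ratios among domains with a gene start or end, the 5 with most tags in 1 list only, up to 4 per gene list by tags, the 3 on each side of the threshold and the 5 with most H3K9me3 tags, and others are said to be chosen after their values were seen. A few items that these rules named are not reported here.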

Additional observations from a re-analysis of the deposited data

Results flagged for a closer look

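Chromosome Y lay outside the regions described above, and each H3K4me3 list held 1 peak of over 4 kb there. In the LPS library it held 412 tags over 4.164 kb (90740893 to 90745056) at a score of 154. In the PBS library it held 373 tags over 4.146 kb (90740844 to 90744989) at a score of 236. H3K9me3 peaks overlapping it held 728 tags with LPS and 596 with PBS, in both treatments more than the H3K4me3 peak.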

How the results depend on the processing

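No paired analysis was possible because each group held 1 library, and for the same reason no replicate could be left out. At thresholds of 3000 and 5000 bp there were 1924 and 293 domains, of which 269 and 61 were broad with LPS only, 729 and 137 with PBS only and 926 and 95 in both. They carried 1773 and 295 genes (13.6% and 2.26%), with 8 and 2 domains 2-fold higher with LPS and 68 and 15 with PBS. Median downstream lengths were 2757 and 4796 bp, and at 3000 bp the upstream length was 966 bp. At 5000 bp 29.7% of domains had H3K9me3 with LPS and 21.6% of promoters held the PU.1 core. At 3000 bp the other regions had H3K9me3 in 15.0% with LPS and 12.2% with PBS. With an equal number of longest peaks from each list, 168 domains were broad with LPS only and 168 with PBS only, an equality that the equal numbers impose.

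The median log2 ratio was -0.16 per covered kb, 0.0135 scaled by tags in peaks, -0.0229 scaled to the median region and -0.26 over domains broad in both. Domains 2-fold higher with LPS and with PBS numbered 0 and 0 per covered kb, 12 and 10 by tags in peaks, 10 and 12 by the median region, and 0 and 1 for those broad in both. No share over all regions is given here for the scaling by tags in peaks or by the median region, so those counts describe the domains alone. Per covered kb the sign turned at Parp10 (-0.39), Ly6e (-0.43), Tpst2 (0.81), Il21r (0.10) and Wdr91 (0.11), all at least 2-fold by tags, and at Ccdc88b (-0.10), Cilp2 (-0.10) and Tlx3 (-0.02), under 2-fold.

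H3K9me3 peaks scoring 100 or more lay on 10.7% of domains with LPS and 11.03% with PBS, against 5.62% and 4.64% of other regions. Among other regions with 2000 bp covered the shares were 29.4% and 23.6%, and promoters of other regions in both lists had 62.7% GC. Leaving out domains with 100 or more H3K9me3 tags, an alternative chosen after seeing the data, left 651 domains with 4 and 30 2-fold higher with LPS and with PBS. Of the ratios of the single domains named for them under these settings, 20 stayed within their counting interval, 45 moved, among them the 3 under 2-fold whose sign turned, and 5 turned from at least 2-fold. The causes were not tested.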
